A study of Mus musculus with 18 samples.

Results

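The circadian clock genes of the mouse liver were followed in 18 mice of the chronic-plus-binge ethanol model. The 10 genes chosen by name were *Arntl*, *Clock*, *Npas2*, *Per1*, *Per2*, *Per3*, *Cry1*, *Nr1d1*, *Nr1d2* and *Dbp*. Of these, 8 matched the deposited table by symbol and 9 by Ensembl identifier, because *Arntl* is listed there as *Bmal1*. *Npas2* was not analysed here, which left 9 clock genes of 15052 genes. The groups were 4 pair-fed wild-type (WT) mice, 5 pair-fed *Apoe* KO mice, 5 EtOH-fed WT mice and 4 EtOH-fed *Apoe* KO mice, the last numbered 1, 2, 4 and 5. The mice were 10 to 12 weeks old at the start. Every animal first had 5 days on a Lieber-DeCarli liquid diet. For 10 days it then held 5% (v/v) ethanol in the EtOH-fed groups, while pair-fed mice had an isocaloric control diet. On day 11, in the early morning, the EtOH-fed mice were gavaged with 5 g/kg ethanol and the pair-fed mice with 9 g/kg dextrin maltose. All livers were taken 9 h later. *Apoe* KO mice lack apolipoprotein E, a carrier of plasma lipids, in every cell of the body, and WT and *Apoe* KO mice came from a commercial supplier. They were not described as littermates. With collection at a single time after the gavage, a shift of the daily rhythm and a change in its mean or height cannot be told apart.

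The circadian clock is a feedback loop of transcription that runs in nearly every cell. BMAL1 (the product of *Arntl*) and CLOCK, or its relative NPAS2, bind E-boxes and switch on the *Per*, *Cry*, *Nr1d* and *Dbp* genes. PER and CRY proteins return to the nucleus and inhibit that pair, while the nuclear receptors encoded by *Nr1d1* and *Nr1d2* (REV-ERB alpha and beta) repress *Arntl*, so that *Arntl* peaks when *Dbp* and *Nr1d1* are low. In the liver the clock times lipid, glucose, bile acid and drug metabolism, and feeding is a strong signal that sets its phase.

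The windows before the start of 3 of the repressor genes are shown because they hold the letters that the loop is known to work through. They are the 250 bases before an annotated RefSeq start on GRCm38.p6, each written in the direction of its own gene. Capitals mark matches on either strand to the E-box CACGTG, the E-box variant CACGTT, the D-box TTANGTAA bound by DBP and its relatives, and the half-site AGGTCA bound by REV-ERB receptors. The motifs do not overlap in these windows. The lines give *Cry1* at chr10:85185055-85185304, minus strand, *Per1* at chr11:69098699-69098948, plus strand, and *Per3* at chr4:151044666-151044915, minus strand.
*Cry1*: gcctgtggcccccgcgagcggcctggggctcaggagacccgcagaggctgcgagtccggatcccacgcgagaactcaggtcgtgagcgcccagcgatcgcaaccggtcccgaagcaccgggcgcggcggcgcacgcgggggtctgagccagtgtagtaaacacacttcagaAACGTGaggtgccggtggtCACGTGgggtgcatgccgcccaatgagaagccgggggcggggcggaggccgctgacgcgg
*Per1*: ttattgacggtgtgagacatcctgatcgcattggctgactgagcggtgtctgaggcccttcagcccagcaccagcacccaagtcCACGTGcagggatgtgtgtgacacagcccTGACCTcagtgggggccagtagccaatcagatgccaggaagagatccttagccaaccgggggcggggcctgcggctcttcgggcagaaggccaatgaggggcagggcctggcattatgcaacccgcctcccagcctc
*Per3*: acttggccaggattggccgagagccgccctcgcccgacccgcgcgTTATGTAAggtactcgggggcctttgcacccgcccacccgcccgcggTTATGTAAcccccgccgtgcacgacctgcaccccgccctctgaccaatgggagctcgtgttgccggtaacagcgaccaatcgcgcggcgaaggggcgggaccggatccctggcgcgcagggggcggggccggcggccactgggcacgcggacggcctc
In *Cry1* the E-box begins at position −60 and the variant at −79, counted back from the start. In *Per1* the E-box begins at −166 and the half-site at −137, and in *Per3* the D-boxes begin at −205 and −158. RefSeq windows were matched for 9 of the 10 clock genes, *Npas2* included, and hold 13 starts. There was no window for *Per2*. CACGTG stood in 2 of the 13 windows, 1 each of *Cry1* and *Per1*, and in 6.02% of 32851 windows of all genes. CACGTT stood in 2 of the 13 (*Cry1* and *Nr1d1*) and in 3.85% of all windows, and TTANGTAA in 1 (*Per3*) and in 2.06%. AGGTCA stood in 3 of the 13 (1 each of *Clock*, *Nr1d2* and *Per1*) and in 14.0% of all windows. A match of letters is a description of the window and does not show that a factor was bound in these livers.

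The deposited value of a gene is the authors' read count after scaling to a nearly common total, between 32267493 and 32292618 per mouse, so it is a relative level and the totals do not show depth. From the spacing of the low values, 1 read was worth between 1.31 and 5.79 units in the 7 mice where the spacing could be resolved, which corresponds to between 5.58 and 24.6 M reads on genes. In the labelled *Apoe* KO mice *Apoe* lay between 8586 and 108651, against 611230 or more in every WT mouse. In bulk liver, fewer cells of a type and less RNA per cell cannot be told apart. The 5 hepatocyte markers were present in every mouse, and their summed value, most of it *Alb*, lay between 1989633 and 3619720. The labels give all mice as female, but EtOH-fed *Apoe* KO mouse 1 had 826 for *Xist*, against 15227 to 30379 in the other 17 mice, and 1077 for *Ddx3y*, against 2 to 118. This mouse goes against its label. EtOH-fed WT mouse 4 stood apart in the clock genes themselves. Ethanol results within a genotype that rest on either mouse are given with and without it. The other comparisons are given mostly as ranges over single mice left out. Fits without mouse 4 leave out a mouse picked by the tested values, so stronger calls there are no added support. Whether the livers of a group came from separate days or cages is not stated, and each mouse counted as 1 replicate.

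Per kilobase of annotated exon, *Dbp* and *Nr1d2* were the most abundant of the 9 clock genes in pair-fed WT livers, at 636 and 635 units per kb. *Per2* followed at 379, *Per1* at 304, *Nr1d1* at 303, *Per3* at 266 and *Cry1* at 141 units per kb. The activators were the lowest, with *Clock* at 62.1 and *Arntl* at 11.4 units per kb. In EtOH-fed WT livers *Dbp* had 194 and *Arntl* 40.6 units per kb.

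**Figure D1:**
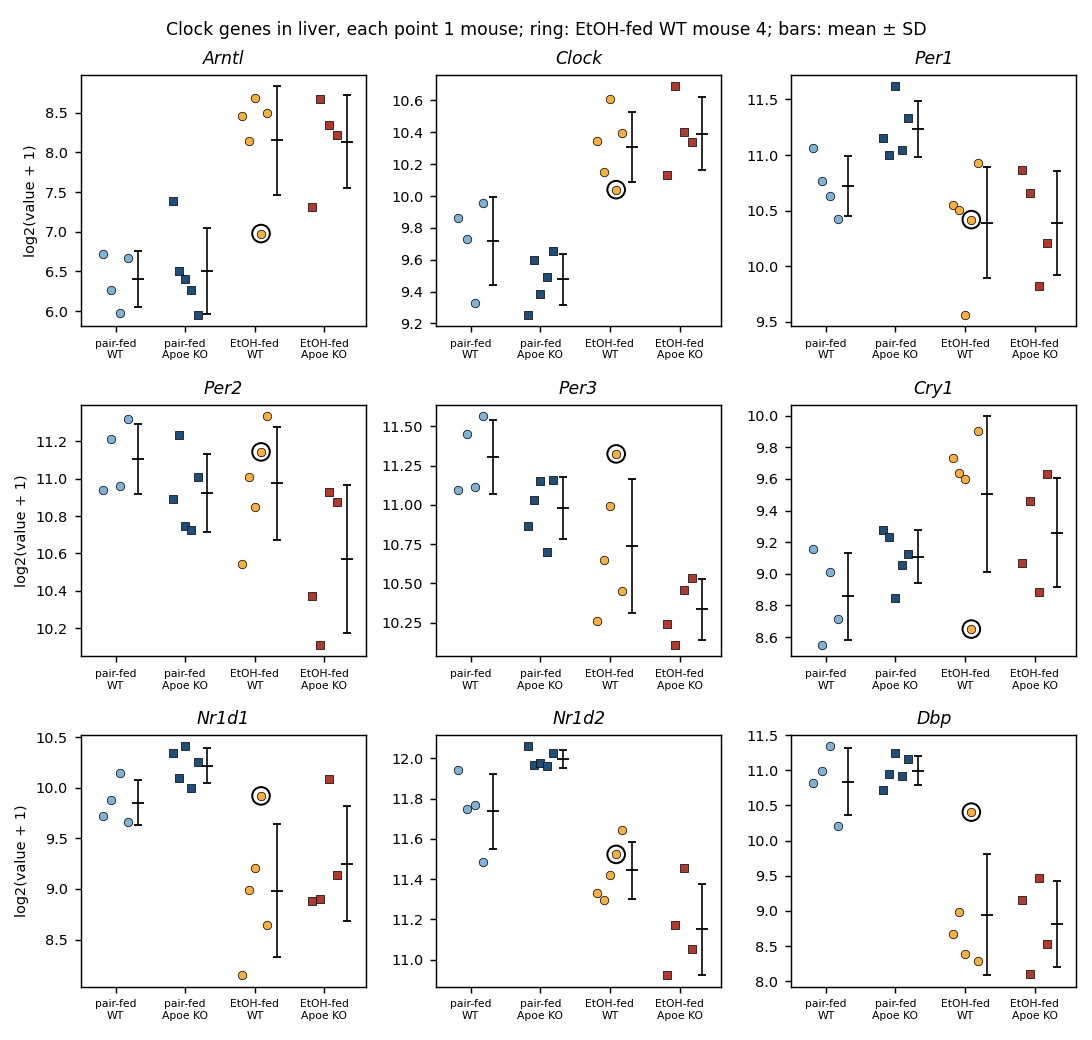
Level of the 9 clock genes as log2(value + 1), each point 1 mouse, in pair-fed WT (n = 4), pair-fed *Apoe* KO (n = 5), EtOH-fed WT (n = 5) and EtOH-fed *Apoe* KO mice (n = 4). The dash and bar give the mean ± SD of the group, and the ring marks EtOH-fed WT mouse 4, which lay inside the range of the pair-fed WT mice for 6 of the 9 genes.

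The first question was how the clock genes differed between EtOH-fed and pair-fed mice of each genotype. These groups differed in the liquid diet and in the gavage, and the times at which the mice ate are not stated. Ethanol and the intake or timing of food cannot be told apart, and "with ethanol" means EtOH-fed against pair-fed. *Arntl* and *Clock*, the activators, were higher in EtOH-fed livers of both genotypes, and *Dbp* and *Nr1d1* were lower in both. In WT mice 4 of 9 clock genes were called at an adjusted p under 0.05 (44.4%), 2 higher and 2 lower, against 12.7% of all genes, 6.19% higher and 6.52% lower. In *Apoe* KO mice 7 of 9 were called (77.8%), 2 higher and 5 lower, against 23.2% of all genes, 16.3% higher and 6.92% lower. The median log2 fold change of the 9 clock genes was −0.29 in WT mice, where that of all genes was −0.01, and −0.65 in *Apoe* KO mice, where that of all genes was 0.13. The values of the groups did not overlap for 2 clock genes in WT mice, against 14.4% of all genes, and for 5 in *Apoe* KO mice, against 20.0%. All p-values came from limma fitted to log2(value + 1) of all 15052 genes with Benjamini-Hochberg adjustment. Scaling by median-of-ratios size factors moved the median of all genes from 0.13 to 0.00 for ethanol in *Apoe* KO mice and from 0.11 to −0.02 between the EtOH-fed genotypes.

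*Arntl* (chr7:113207465-113314126, plus strand) encodes BMAL1, the core activator. Its values were 104, 76, 62 and 101 in pair-fed WT mice and 167, 90, 84, 76 and 61 in pair-fed *Apoe* KO mice. They were 351, 283, 410, 125 and 360 in EtOH-fed WT mice and 158, 408, 323 and 296 in EtOH-fed *Apoe* KO mice. All EtOH-fed WT mice lay above all pair-fed WT mice, and mouse 4 was the nearest to them. Among *Apoe* KO mice the groups overlapped, since EtOH-fed mouse 1 at 158 lay just under pair-fed mouse 1 at 167. *Arntl* was 3.35-fold higher with ethanol in WT mice (log2 fold change 1.75, SE 0.31, adjusted p = 0.0032) and 3.09-fold higher in *Apoe* KO mice (log2 fold change 1.63, SE 0.31, adjusted p = 0.00244). Without EtOH-fed WT mouse 4 the WT log2 fold change was 2.04, and without EtOH-fed *Apoe* KO mouse 1 that of *Apoe* KO mice was 1.90 (adjusted p = 0.00104). These values rest on few reads: *Arntl* stood for an estimated 18, 25 and 60 reads in pair-fed WT mice 1, 2 and 4 and for 77 and 79 in EtOH-fed *Apoe* KO mice 5 and 4.

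*Clock* (chr5:76209868-76304792, minus strand) encodes the partner of BMAL1. It had 928, 849, 641 and 992 in pair-fed WT and 1301, 1134, 1560, 1052 and 1344 in EtOH-fed WT mice. *Apoe* KO mice had 610, 774, 669, 718 and 804 when pair-fed and 1123, 1652, 1351 and 1296 when EtOH-fed. Every EtOH-fed mouse, WT mouse 4 included, lay above every pair-fed mouse of either genotype. *Clock* was 1.50-fold higher with ethanol in WT mice (log2 fold change 0.59, SE 0.15, adjusted p = 0.0213) and 1.89-fold higher in *Apoe* KO mice (log2 fold change 0.92, SE 0.13, adjusted p = 0.000288). The call in WT mice was lost without pair-fed WT mouse 2 (adjusted p = 0.0529) or mouse 3 (adjusted p = 0.0545).

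Among the repressors of the PER and CRY arm, *Per1* and *Per3* were lower with ethanol in *Apoe* KO mice in the main fit. No *Per* or *Cry* gene passed that fit in WT mice, though *Per3* and *Cry1* passed there under some other settings, given below. *Per1* (chr11:69095217-69109960, plus strand), which also responds acutely to glucocorticoids, had 2275, 2048, 3148, 2115 and 2578 in pair-fed and 1862, 1611, 905 and 1184 in EtOH-fed *Apoe* KO mice. The groups did not overlap, and *Per1* fell to 0.558 of its pair-fed level (log2 fold change −0.84, SE 0.19, adjusted p = 0.00623). In WT mice *Per1* had 2144, 1738, 1590 and 1372 when pair-fed and 1499, 1449, 756, 1368 and 1942 when EtOH-fed. These values overlapped, with a log2 fold change of −0.33 (adjusted p = 0.356).

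*Per3* (chr4:151003652-151044665, minus strand), a period gene less needed for rhythm than the other two, had 1862, 2090, 2274, 1661 and 2286 in pair-fed and 1208, 1103, 1404 and 1480 in EtOH-fed *Apoe* KO mice. It fell to 0.639 of its pair-fed level there (log2 fold change −0.65, SE 0.12, adjusted p = 0.00228), and the groups did not overlap. In WT mice *Per3* had 2190, 2794, 2212 and 3026 when pair-fed and 1226, 1602, 2040, 2562 and 1400 when EtOH-fed. Mouse 4, at 2562, was the EtOH-fed WT mouse inside the pair-fed range. The WT log2 fold change was −0.57 (adjusted p = 0.0682), and without mouse 4 it was −0.72 (adjusted p = 0.0169). In WT mice *Per3* also passed with all 4 groups in the fit (−0.57, adjusted p = 0.0296) and with sample quality weights (−0.61, adjusted p = 0.0470). The difference of the ethanol response between genotypes was −0.08 on the log2 scale (limma interaction, adjusted p = 0.911).

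*Per2* (chr1:91415982-91459324, minus strand), whose protein binds CRY in the repressor complex, passed in neither genotype. Its WT values were 1959, 2371, 1990 and 2552 when pair-fed and 1489, 2059, 1840, 2261 and 2580 when EtOH-fed, and the log2 fold change was −0.13 (adjusted p = 0.611). *Apoe* KO mice had 1900, 2403, 1717, 1694 and 2063 when pair-fed and 1322, 1105, 1949 and 1876 when EtOH-fed. That log2 fold change was −0.35, with a 95% interval from −0.70 to 0.00 (adjusted p = 0.144), and it passed with size factors (−0.48, adjusted p = 0.0321).

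*Cry1* (chr10:85131700-85185064, minus strand), the repressor that is typically late in the daily cycle, had 570, 374, 515 and 419 in pair-fed and 850, 796, 773, 401 and 957 in EtOH-fed WT mice. The 4 EtOH-fed WT mice other than mouse 4 lay above all pair-fed WT mice. Its log2 fold change in WT mice was 0.65 (adjusted p = 0.0749), and without mouse 4 it was 0.86 (adjusted p = 0.00450). In WT mice *Cry1* also passed with all 4 groups in the fit (0.65, adjusted p = 0.0389) and with sample quality weights (0.70, adjusted p = 0.0496). For *Apoe* KO mice *Cry1* had 618, 600, 460, 531 and 558 when pair-fed and 535, 702, 471 and 792 when EtOH-fed. These overlapped, with a log2 fold change of 0.15 and a 95% interval from −0.19 to 0.49.

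The REV-ERB genes form the arm that represses *Arntl*. *Nr1d1* (chr11:98767932-98775333, minus strand) had 841, 943, 1135 and 810 in pair-fed and 283, 509, 590, 967 and 400 in EtOH-fed WT mice. *Apoe* KO mice had 1293, 1095, 1358, 1019 and 1220 when pair-fed and 471, 477, 1085 and 561 when EtOH-fed. In each genotype a single EtOH-fed mouse, mouse 4 in both, lay within the pair-fed range. *Nr1d1* fell to 0.547 of its pair-fed level in WT mice (log2 fold change −0.87, SE 0.27, adjusted p = 0.0497) and to 0.511 in *Apoe* KO mice (log2 fold change −0.97, SE 0.21, adjusted p = 0.00493). The WT call lay at the threshold. It was lost when any 1 of 8 of the 9 WT mice was left out, with adjusted p up to 0.110, and it was kept only without EtOH-fed mouse 4 (log2 fold change −1.10, adjusted p = 0.00638). The call was also lost with size factors (adjusted p = 0.0507), with a pseudocount of 0.1 (0.0545) and with the replicate block (0.0655).

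*Nr1d2* (chr14:18204054-18239127, minus strand) had 4269, 3998, 4028, 3989 and 4167 in pair-fed *Apoe* KO mice, the tightest group of any clock gene here. In EtOH-fed *Apoe* KO mice it had 1940, 2308, 2804 and 2126, all lower. It fell to 0.556 of its pair-fed level (log2 fold change −0.85, SE 0.10, adjusted p = 0.000123). In WT mice *Nr1d2* had 3930, 3442, 3490 and 2868 when pair-fed and 2573, 2512, 2742, 2942 and 3202 when EtOH-fed. The WT log2 fold change was −0.29 (adjusted p = 0.107), with EtOH-fed mice 4 and 5 inside the pair-fed range.

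*Dbp* (chr7:45705088-45710203, plus strand), a PAR bZIP activator driven by BMAL1 and CLOCK, had the largest change of the 9 clock genes in both genotypes. Its values were 1809, 2033, 2590 and 1178 in pair-fed WT mice and 407, 504, 335, 1354 and 310 in EtOH-fed WT mice. They were 1683, 1964, 2421, 1936 and 2276 in pair-fed and 567, 275, 708 and 369 in EtOH-fed *Apoe* KO mice. In WT mice only mouse 4, at 1354, lay within the pair-fed range, and in *Apoe* KO mice the groups did not overlap. *Dbp* fell to 0.269 of its pair-fed level in WT mice (log2 fold change −1.89, SE 0.36, adjusted p = 0.00481) and to 0.221 in *Apoe* KO mice (log2 fold change −2.18, SE 0.22, adjusted p = 3.74e-05). Without mouse 4 the WT log2 fold change was −2.26 (adjusted p = 9.75e-05). *Dbp* shares 539 of its 2993 exon bases with *Sphk2* on the opposite strand, and *Nr1d1* shares 263 of 3077 with *Thra*. Whether reads were counted by strand is not stated. The log2 fold change with ethanol was 0.16 and 0.18 for *Sphk2* in WT and *Apoe* KO mice and −0.37 and 0.24 for *Thra*, and none of these passed.

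**Figure D2:**
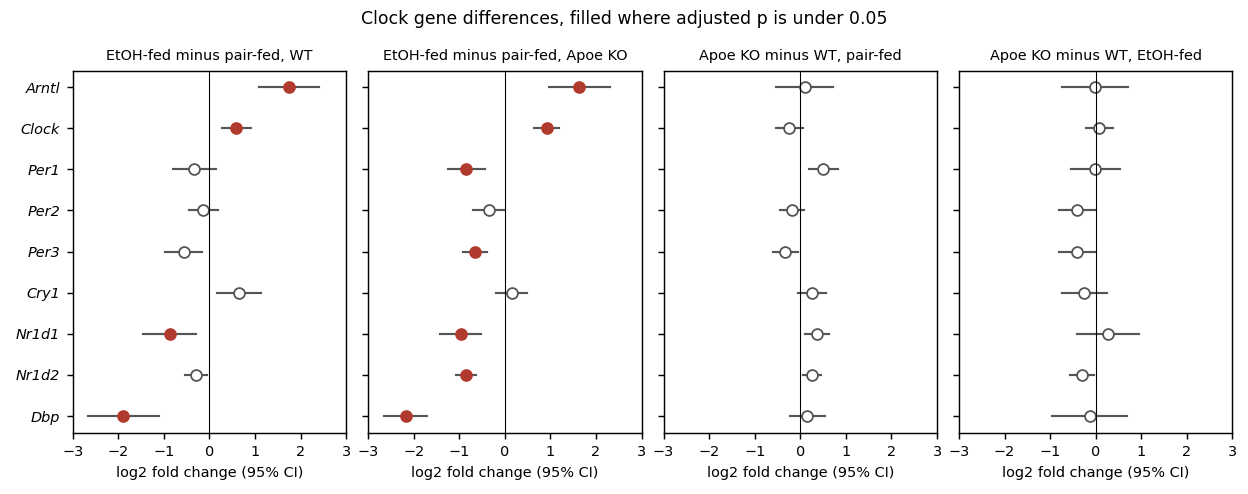
Log2 fold change of the 9 clock genes for ethanol in each genotype and for *Apoe* KO in each diet, with 95% intervals from limma. Filled points passed at an adjusted p under 0.05: 4 genes for ethanol in WT, 7 for ethanol in *Apoe* KO and 0 for either genotype comparison.

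Within single livers the gap between the activator and its output was narrower in 8 of 9 EtOH-fed mice than in any pair-fed mouse. The log2 level of *Arntl* minus that of *Dbp* lay between −5.36 and −3.53 in pair-fed WT mice (mean −4.43 ± 0.79, SD, n = 4) and between −5.20 and −3.33 in pair-fed *Apoe* KO mice (mean −4.49 ± 0.71, SD, n = 5). With ethanol it lay in *Apoe* KO livers between −1.84 and 0.57 (mean −0.68 ± 1.04, SD, n = 4). In EtOH-fed WT mice 4 of the 5 lay between −0.83 and 0.29, and mouse 4 was at −3.43. *Arntl* minus *Nr1d1* followed the same order: between −4.17 and −2.99 in pair-fed WT, −4.30 and −2.95 in pair-fed *Apoe* KO and −1.75 and −0.23 in EtOH-fed *Apoe* KO mice. It lay between −0.85 and 0.31 in the 4 EtOH-fed WT mice other than mouse 4, and at −2.94 in mouse 4. These differences restate the values of *Arntl*, *Dbp* and *Nr1d1* above and were given no test.

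**Figure D3:**
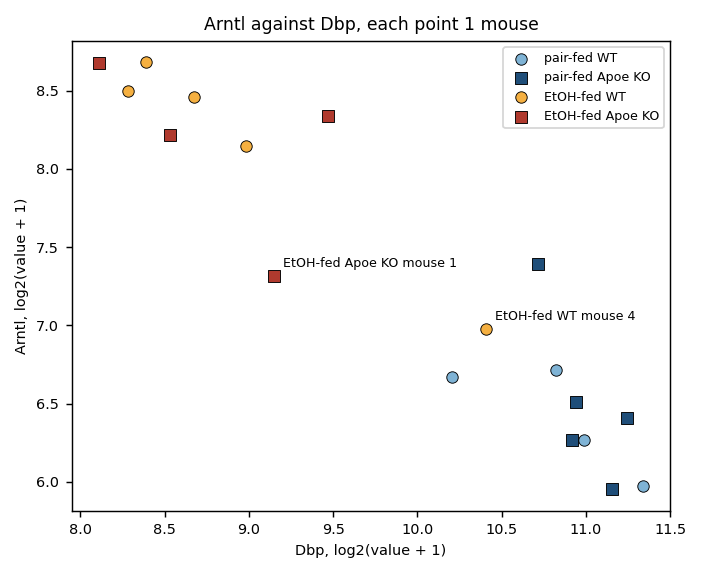
Level of *Arntl* against that of *Dbp*, both as log2(value + 1), each point 1 of the 18 mice. Pair-fed mice of both genotypes lie at high *Dbp* and low *Arntl*, 7 of the 9 EtOH-fed mice at low *Dbp* and high *Arntl*, EtOH-fed *Apoe* KO mouse 1 (*Dbp* 567, *Arntl* 158) between them, and EtOH-fed WT mouse 4 (*Dbp* 1354, *Arntl* 125) beside the pair-fed mice.

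EtOH-fed WT mouse 4 had 6 clock genes inside the pair-fed WT range, namely *Per2*, *Per3*, *Cry1*, *Nr1d1*, *Nr1d2* and *Dbp*, where the other 4 EtOH-fed WT mice had between 0 and 2. Of 29 further clock components and clock-controlled genes, 12 lay inside that range in mouse 4 and between 7 and 10 in each of the other 4. Its *Upp2* of 2214 and *Usp2* of 993 were below every pair-fed WT mouse. Without mouse 4, 6 of 9 clock genes passed in WT mice, with *Per3* and *Cry1* added to the 4. Mouse 4 was picked by these same values, so the added calls carry no weight of their own. Without pair-fed WT mouse 2 or mouse 3, 2 of 9 passed, *Arntl* and *Dbp*. The share of all genes called was recorded for the main fits only, so these counts have no such share beside them. Among *Apoe* KO mice the same 7 genes passed whichever single mouse was left out, mouse 1 of the EtOH-fed group included. That mouse had *Arntl* and *Cry1* inside the pair-fed range. Without it the *Apoe* KO log2 fold change was −2.29 for *Dbp*, −0.77 for *Nr1d2* and −0.84 for *Nr1d1* (adjusted p = 0.0166).

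The second question was whether *Apoe* KO mice differed from WT mice on the same diet. These comparisons use the same mice as those of diet, so their values are not independent of them. None of the 9 clock genes passed limma's test in pair-fed mice, where 1.73% of all genes passed (0.870% higher and 0.864% lower), or in EtOH-fed mice, where 4.69% passed (4.25% higher and 0.445% lower). At an unadjusted p under 0.05 there were 4 clock genes in pair-fed mice (*Per1*, *Per3*, *Nr1d1* and *Nr1d2*), where 19.9% of all genes were at that level, and 2 in EtOH-fed mice (*Per2* and *Nr1d2*), where 18.9% of all genes were. In pair-fed livers *Nr1d2* was the clock gene whose groups did not overlap, against 7.03% of all genes. All 5 *Apoe* KO mice, at 3989 or more, lay above all 4 WT mice, at 3930 or less (log2 fold change 0.26, adjusted p = 0.151). Among pair-fed mice *Per1* had a log2 fold change of 0.51 (95% interval 0.20 to 0.82, adjusted p = 0.0844). *Nr1d1* had 0.37 there (adjusted p = 0.129), and passed without pair-fed WT mouse 3 (0.46, adjusted p = 0.0471). In EtOH-fed livers the 2 genotypes overlapped for all 9 clock genes, against 8.13% of all genes without overlap, and *Per1* had a log2 fold change of −0.004.

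For *Arntl* the log2 difference of *Apoe* KO from WT was 0.10 in pair-fed mice (95% interval −0.53 to 0.72) and −0.02 in EtOH-fed mice (−0.74 to 0.70). For *Dbp* it was 0.16 in pair-fed mice (−0.23 to 0.54) and −0.13 in EtOH-fed mice (−0.96 to 0.69). These intervals leave room for sizeable differences in either direction. Without EtOH-fed *Apoe* KO mouse 1 the *Arntl* difference in EtOH-fed mice was 0.26 (adjusted p = 0.726). *Dbp* lies 26.0 Mb from *Apoe* on chromosome 7, and *Arntl* 93.5 Mb. In EtOH-fed mice all 5 Kupffer cell markers were higher in *Apoe* KO livers, with summed values from 10705 to 20653 against 4297 to 8212. Of the 5 stellate cell and fibroblast markers, 2 were higher, with sums from 17370 to 31547 against 10069 to 16580. The share of all genes called higher there was 4.25%. The part of these cells in the clock gene values was not tested. By group means, *Arntl* and *Cry1* ran from EtOH-fed WT through EtOH-fed and pair-fed *Apoe* KO to pair-fed WT, and *Per1*, *Nr1d2* and *Dbp* from pair-fed *Apoe* KO through pair-fed and EtOH-fed WT to EtOH-fed *Apoe* KO. *Clock* ran from EtOH-fed *Apoe* KO and WT to pair-fed WT and *Apoe* KO, and *Per3* and *Nr1d1* had both pair-fed groups above both EtOH-fed groups. Neighbours of the same diet in these orders did not pass the test. The *Per2* order, from pair-fed WT to EtOH-fed *Apoe* KO, had no step that was tested and passed.

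Whether ethanol acted differently on a clock gene in the 2 genotypes was tested as the interaction of diet and genotype in all 18 mice. None of the 9 clock genes passed limma's test, against 2.84% of all genes (2.60% higher), and 1 had an unadjusted p under 0.05, against 16.3% of all genes. That gene was *Nr1d2*, whose fall with ethanol was larger in *Apoe* KO mice by 0.55 on the log2 scale (interaction −0.55, 95% interval −0.87 to −0.24, adjusted p = 0.0529). It passed with size factors (−0.69, adjusted p = 0.0137) and with sample quality weights (−0.57, adjusted p = 0.0308). It also passed without pair-fed WT mouse 1 (−0.62, adjusted p = 0.0359) or EtOH-fed *Apoe* KO mouse 4 (−0.65, adjusted p = 0.0280). It did not pass with a pseudocount of 0.1 (adjusted p = 0.0557) or with the replicate block (0.0819). With single mice left out it did not pass in 16 of the 18 fits, with adjusted p up to 0.142. The fit without EtOH-fed *Apoe* KO mouse 1 was among them (−0.48, adjusted p = 0.0926). The 7 calls in *Apoe* KO mice against 4 in WT mice are therefore not shown to be a difference between genotypes. The interaction was −0.12 for *Arntl*, −0.29 for *Dbp*, −0.51 for *Per1* and −0.49 for *Cry1*.

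Beyond the 9 clock genes, 16 of 17 further clock components were in the table. With ethanol, 1 was higher and 5 were lower in WT mice (median log2 fold change −0.28) and 2 were higher and 4 lower in *Apoe* KO mice (median −0.07). Of all genes 6.19% were higher and 6.52% lower in WT mice, and 16.3% higher and 6.92% lower in *Apoe* KO mice. *Tef* and *Hlf*, PAR bZIP relatives of *Dbp*, were lower in both genotypes. *Tef* had 6427 to 7762 in pair-fed WT and 4627 to 5554 in EtOH-fed WT mice (log2 fold change −0.53, adjusted p = 0.00374). In *Apoe* KO mice *Tef* went from 6716 to 7795 down to 3337 to 4692 (−0.85, adjusted p = 0.000125). *Hlf* fell by 0.97 on the log2 scale in *Apoe* KO mice (adjusted p = 3.44e-05) and by 0.63 in WT mice (adjusted p = 0.0288), where the call was lost without pair-fed mouse 1 (adjusted p = 0.0827) or 3 (0.0772), or EtOH-fed mouse 3 (0.0564), with size factors (0.0501), with quality weights (0.0521) and with the replicate block (0.0653). *Nfil3*, the bZIP repressor that competes with DBP for D-boxes, was the component that rose in WT mice, with 536 to 940 when pair-fed and 928 to 2111 when EtOH-fed (log2 fold change 1.17, adjusted p = 0.00750). The *Apoe* KO value for *Nfil3* was 0.36 on the log2 scale (adjusted p = 0.104), and the interaction did not pass (adjusted p = 0.183). *Ciart*, a repressor of BMAL1 and CLOCK, fell by 0.97 in WT mice (adjusted p = 0.00967) and fell by 1.13 in *Apoe* KO mice (adjusted p = 0.00609). *Fbxl21*, a ubiquitin ligase subunit that acts on CRY proteins, fell by 0.80 in WT mice (adjusted p = 0.0109) and fell by 1.44 in *Apoe* KO mice (adjusted p = 0.000198). *Csnk1e*, a casein kinase that phosphorylates PER proteins, rose by 0.88 in *Apoe* KO mice (adjusted p = 0.00155). *Rora*, *Cry2* and *Bhlhe40* passed for ethanol in neither genotype. Between genotypes none of the 16 passed in pair-fed mice. In EtOH-fed mice *Bhlhe41* was higher and *Fbxl21* lower in *Apoe* KO livers (log2 fold changes 1.60 and −0.89, adjusted p = 0.0347 and 0.0282). These calls were lost without any 1 of 5 and of 7 of the 9 mice, with adjusted p up to 0.0892 and 0.0728. That of *Fbxl21* was also lost with quality weights (adjusted p = 0.0507) and with the replicate block (0.0692).

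*Bhlhe41* (DEC2), an E-box repressor, was the component that went opposite ways in the 2 genotypes. It had 133, 131, 114 and 128 in pair-fed WT and 27, 59, 78, 66 and 64 in EtOH-fed WT mice, which did not overlap. In *Apoe* KO mice it had 57, 73, 96, 98 and 91 when pair-fed and 99, 138, 385 and 158 when EtOH-fed, where every EtOH-fed mouse was higher. With ethanol it fell by 1.17 on the log2 scale in WT mice (adjusted p = 0.0184) and rose by 1.05 in *Apoe* KO mice (adjusted p = 0.0379). The interaction was 2.22 (SE 0.47, adjusted p = 0.0130) and passed whichever single mouse was left out, between 1.83 and 2.48. In pair-fed livers all *Apoe* KO mice lay below all WT mice (groups did not overlap for 7.03% of all genes). That log2 fold change was −0.63 (adjusted p = 0.137) and was not called, but the unequal pair-fed levels enter the interaction. The rise in *Apoe* KO mice lost its call with size factors (adjusted p = 0.0511), with sample quality weights (adjusted p = 0.0688), and without any 1 of 6 of the 9 mice. Without EtOH-fed mouse 4 it was 0.66 (adjusted p = 0.0958). The WT call was lost without pair-fed WT mouse 2 (adjusted p = 0.0510). *Bhlhe41* is a low gene, in the range of values where *Arntl* stood for few reads in the shallower libraries.

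All 13 clock-controlled output genes were in the table, and none was called higher with ethanol. In WT mice 5 were lower and 8 did not pass (median log2 fold change −0.45), and in *Apoe* KO mice 7 were lower and 6 did not pass (median −0.88). Of all genes 6.52% and 6.92% were lower. The counts include *Nampt* in WT mice (log2 fold change −0.42, adjusted p = 0.0371) and *Noct* in *Apoe* KO mice (−0.95, adjusted p = 0.0278). *Nampt* lost its call with size factors (0.0639) and without any 1 of 6 of the 9 mice (up to 0.0995). *Noct* lost its call with all 4 groups in the fit (0.0567), with the replicate block (0.0739) and without any 1 of 5 of the 9 (up to 0.0894). *Upp2*, a uridine phosphorylase of liver, had 7385 to 11367 in pair-fed WT and 1956 to 4207 in EtOH-fed WT mice (log2 fold change −1.995, adjusted p = 6.00e-05). Among *Apoe* KO mice *Upp2* went from 4723 to 21769 down to 2565 to 6450, with overlap (log2 fold change −1.66, adjusted p = 0.00433). *Usp2*, a deubiquitinase under direct BMAL1 and CLOCK control, had 2177 to 3565 in pair-fed and 565 to 1077 in EtOH-fed *Apoe* KO mice (log2 fold change −1.86, adjusted p = 2.04e-05). In WT mice *Usp2* had 1879 to 3054 when pair-fed and 917 to 1894 when EtOH-fed (−1.02, adjusted p = 0.00757). *Alas1*, the first enzyme of heme synthesis, fell by 0.91 in WT mice (adjusted p = 0.00476) and by 1.01 in *Apoe* KO mice (adjusted p = 0.00181). *Wee1*, a kinase that restrains entry into mitosis, fell by 0.91 in *Apoe* KO mice (adjusted p = 0.000811). *Lpin1*, a phosphatidate phosphatase and coregulator, fell by 1.22 in WT mice (adjusted p = 0.00900), with −0.37 in *Apoe* KO mice (adjusted p = 0.440). *Nampt*, the enzyme that limits NAD salvage, fell by 0.51 in *Apoe* KO mice (adjusted p = 0.00158). None of the 13 outputs passed between genotypes or for the interaction. Markers of endothelium also moved with ethanol: 4 of 5 were higher in each genotype, and their sums were 3253 to 4791 over all pair-fed and 5464 to 9125 over all EtOH-fed mice. Of the Kupffer cell markers 2 of 5 were lower in WT and 2 higher in *Apoe* KO mice, and of the stellate cell and fibroblast markers 4 of 5 were higher in *Apoe* KO mice. Of the bile duct markers 2 of 5 were lower in WT and 1 higher in *Apoe* KO mice. The share of all genes called higher was 6.19% in WT and 16.3% in *Apoe* KO mice, and that called lower 6.52% and 6.92%. The 1 of 5 bile duct markers higher in *Apoe* KO mice is thus near the share of all genes. Of the hepatocyte markers *Cps1* was higher in WT (log2 fold change 1.12, adjusted p = 0.00490) and in *Apoe* KO mice (0.825, adjusted p = 0.00392), and the others did not pass. The part of these cells in the values of the clock genes and outputs was not tested.

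**Figure D4:**
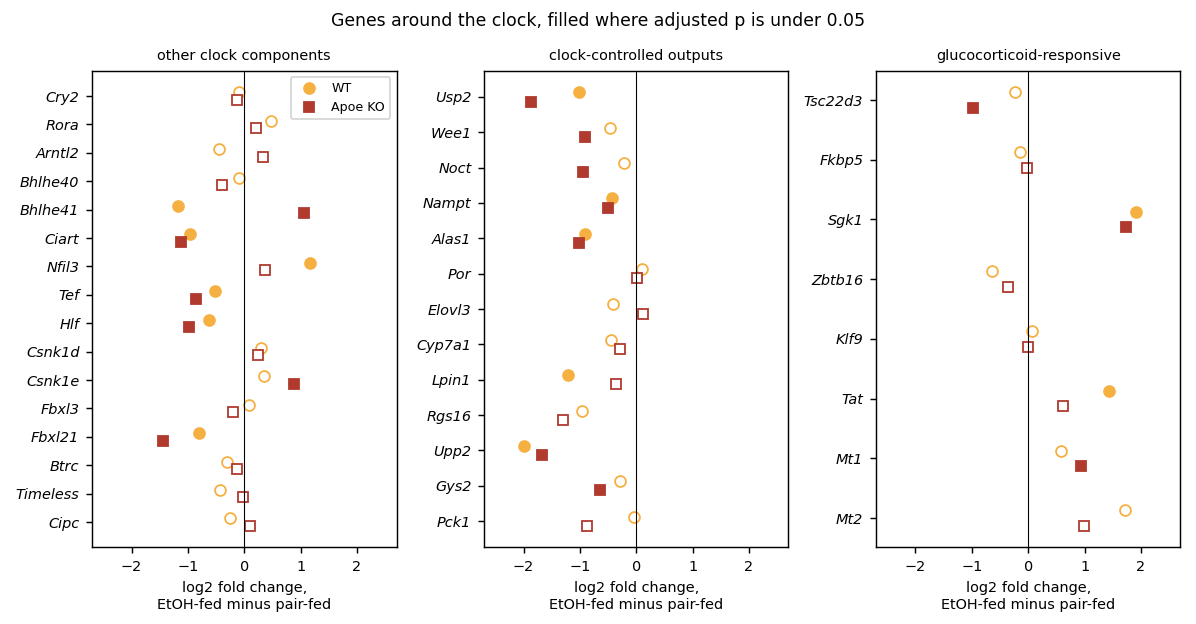
Log2 fold change with ethanol in WT and in *Apoe* KO mice for 16 further clock components, 13 clock-controlled outputs and 8 glucocorticoid-responsive genes, each gene with 1 point per genotype, filled where the adjusted p was under 0.05. Among the outputs 5 in WT and 7 in *Apoe* KO mice passed, all lower, and *Nfil3* in WT mice and *Bhlhe41* in *Apoe* KO mice are among the components that were higher.

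Genes whose profile over the 18 mice was most like that of *Arntl* or *Dbp* were sought among 11073 genes with a mean value of at least 100, by the root mean square difference of log2 levels after each gene was centred on its own mean. For *Arntl*, whose own SD over the mice was 0.98 log2 units, the nearest were *Slc22a3* (difference 0.42), an organic cation transporter, *Dtx4* (0.45), *Chka* (0.45), a choline kinase, *Kctd15* (0.50) and *Samd4* (0.51). For *Dbp*, with an SD of 1.15, they were *Hsd3b2* (0.48), *Adh4* (0.49), an alcohol dehydrogenase, *Nxpe2* (0.52), *Rnf152* (0.53) and *Nat8f1* (0.57). These genes follow the same split of the mice by diet, and the likeness carries no test.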

How the data were processed

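According to the labels and the study's methods, the authors extracted RNA from liver with TRIzol, selected poly(A) RNA, trimmed reads (Trimmomatic), mapped them (HISAT2) and counted reads per gene (featureCounts). The submitters' processing notes also name FastQC, SAMtools, DESeq2 and the build GRCm38. Versions, annotation and strandedness are not given in the sources used here. The authors deposited 1 table of a signal per gene and mouse, that is, read counts brought to almost the same sum in every mouse and stored as whole numbers. How this was done is not described. Columns holding fold changes and p-values of the authors were not used. Of 15247 lines, 195 repeated a gene with identical values and were dropped, which left 15052 genes, 1329 of them without a symbol. The smallest mean signal is 12.1, so lower genes are missing from the table.

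Counts had been assumed for the planned test. Because the values are scaled and whole reads could be recovered in only 7 of 18 mice, no count test was run, and limma 3.58.1 (R 4.3.3) was fitted to log2(signal + 1) with trended prior variance. P-values were adjusted by Benjamini-Hochberg over all genes, the threshold being 0.05. Each fit held the mice of its own groups, and the interaction all 18 mice. Fold changes on this scale understate the change of low genes. The fit was tested on simulated data. Other settings tried were sample quality weights, size factors by the median of ratios, a filter at 10 in every mouse, fitting all 4 groups together, a pseudocount of 0.1, the replicate number as a block and leaving out each mouse. Coordinates and exon lengths are from GENCODE M21 (GRCm38). Promoter windows are from RefSeq. Calculations used Python 3.11.15, numpy 2.4.6 and pandas 2.3.3, with figures from matplotlib 3.10.9.

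A further gene of the list of clock components is not reported here. The members and lists were chosen with earlier results of these data known. All clock genes were described, and of each other list up to 4 genes with the smallest adjusted p per comparison could be named. *Rora*, *Cry2*, *Bhlhe40*, *Fkbp5*, *Sphk2*, *Thra* and the genes given for single mice were named after their values were seen, where that rule did not reach them.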

Additional observations from a re-analysis of the deposited data

Results flagged for a closer look

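*Cry1* in EtOH-fed WT mouse 4 lay far from the other mice of its group. Its value was 401, where the other 4 EtOH-fed WT mice had 773 to 957, and the gap on the log2 scale was 0.754 of the range of the group. Of 44 groups of values looked at in this way, for the 9 clock genes and the differences of *Arntl* from *Dbp* and *Nr1d1*, 1 had a mouse so far apart, and about 1 in 20, or 2.2, would be so by chance.

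*Bhlhe41* responded to ethanol in opposite directions in the 2 genotypes, with an interaction in limma of 2.22 log2 units (adjusted p = 0.0130). It was lower in all 5 EtOH-fed WT mice than in any pair-fed WT mouse, and higher in all 4 EtOH-fed *Apoe* KO mice than in any pair-fed *Apoe* KO mouse. Pair-fed levels were also unequal, at 98 or less in *Apoe* KO and 114 or more in WT mice. That log2 fold change was −0.63 (adjusted p = 0.137, not called), and it enters the interaction. In EtOH-fed livers 5 of 5 Kupffer cell markers were also higher in *Apoe* KO than in WT mice, and the interaction also passed for 2 of 5 Kupffer cell markers (*Clec4f* 1.67 and *Cd5l* 1.26), 2 of 5 stellate cell and fibroblast markers (*Col1a1* 2.08 and *Col3a1* 1.70) and 1 of 5 bile duct markers (*Krt19* 3.18, with −1.86 in WT and 1.32 in *Apoe* KO mice). The part of these cells in the level of *Bhlhe41* was not tested. The share of all genes called higher in EtOH-fed *Apoe* KO than WT livers was 4.25%, and that with a positive interaction called was 2.60%.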

How the results depend on the processing

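For ethanol in *Apoe* KO mice 7 of 9 clock genes were called in every alternative except size factors, which called 8. For ethanol in WT mice the count was 4, and it lay between 2 and 6 with single mice left out and between 3 and 6 under the other settings apart from the replicate block. For *Apoe* KO in pair-fed mice it was 0, and 0 to 1 with single mice left out. In EtOH-fed mice it was 0 throughout. For the interaction it was 0, with 1 (*Nr1d2*) under size factors, 1 under the filter at 10 (adjusted p = 0.04998) and 1 under sample quality weights. It was 0 to 1 with single mice left out. The share of all genes called under these alternatives was not recorded, so a change of these counts may be one of all genes.

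Differences between EtOH-fed genotypes that were not called changed sign: *Clock* was −0.043 with size factors, *Per1* 0.072 with quality weights and *Arntl* 0.12 with the replicate block. With single mice left out, *Arntl* ranged from −0.31 to 0.26, *Clock* from −0.015 to 0.17, *Per1* from −0.21 to 0.18, *Dbp* from −0.35 to 0.23 and *Nr1d1* from −0.011 to 0.50 there. In pair-fed mice *Arntl* ranged from −0.12 to 0.24 and *Dbp* from −0.056 to 0.32. The interaction ranged from −0.41 to 0.16 for *Arntl*, −0.20 to 0.07 for *Per3*, −0.38 to 0.14 for *Nr1d1* and −0.51 to 0.078 for *Dbp*. The cause was not tested.

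Mice of the same number are different animals. With the replicate number as a block, on the numbers shared by both groups, 2 clock genes were called for ethanol in WT mice, *Clock* (adjusted p = 0.0777) and *Nr1d1* (adjusted p = 0.0655) being lost. The deviations of same-numbered mice correlated between −0.22 and 0.23 over the comparisons, and not every pair exceeded 0.1, so the numbers were not taken to pair the mice. Between the EtOH-fed genotypes 3 of 4 pairs exceeded 0.1 (mean 0.135), and 6 of 8 mice correlated best with their own number. In the other comparisons 2 or 3 of 8 did so. What same-numbered EtOH-fed mice share was not tested.

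*Arntl* stands for few reads in the shallower libraries, which adds counting error to its values there.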

Other observations

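Of 8 glucocorticoid-responsive genes, 2 were higher and none lower with ethanol in WT mice, and 2 were higher and 1 lower in *Apoe* KO mice. Of all genes 6.19% were higher in WT and 16.3% in *Apoe* KO mice, and 6.52% and 6.92% were lower. One of the genes higher in *Apoe* KO mice, *Mt1* (0.93, adjusted p = 0.0314), lost its call with size factors (0.0839), with all 4 groups in the fit (0.0557) and without any 1 of 7 of the 9 mice. *Sgk1*, a kinase induced by glucocorticoids, had 663 to 818 in pair-fed and 1221 to 5594 in EtOH-fed WT mice (limma, log2 fold change 1.91, adjusted p = 0.00397). In *Apoe* KO mice *Sgk1* had 704 to 940 when pair-fed and 1626 to 4058 when EtOH-fed (1.74, adjusted p = 8.82e-05). *Tat*, the tyrosine aminotransferase of hepatocytes, had 14225 to 26939 in pair-fed and 37256 to 88343 in EtOH-fed WT mice (1.43, adjusted p = 0.00182), and for *Apoe* KO mice the log2 value was 0.61 (adjusted p = 0.163). *Tsc22d3* (GILZ), a glucocorticoid target as well, went the other way in *Apoe* KO mice, from 3048 to 4522 down to 1611 to 2607 (−0.97, adjusted p = 0.000414), and *Fkbp5*, another such target, had −0.15 in WT and −0.03 in *Apoe* KO mice, neither called.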
